A study of Mus musculus with 31 samples.

Results

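Hypk and 9 other genes that modify or receive the N-terminus of a growing protein chain were followed in single 2-cell mouse embryos: Naa10, Naa15 and Naa50, Naa20 and Naa25, Naa30, Naca and Btf3, and Nmt1. These 10 genes were taken by symbol from a count table of 20544 genes and 31 embryos, and all 10 had enough counts to be tested among 8571 genes. Hypk was singled out for its difference between the 2 sperm treatments in these same embryos. Its values in that comparison therefore describe the data and carry no p-value, and the other members were chosen around it by function.

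The embryos were wild type. They came from in vitro fertilization of oocytes from superovulated CD1 females, 8 to 10 weeks of age, with sperm from C57BL/6J males aged 12 to 14 weeks, and were collected 32 h post insemination. In the SER (sperm energy restriction and recovery) group, sperm were held in medium lacking glucose and pyruvate until they stopped moving, and both nutrients were then returned. In the control group, sperm had both nutrients throughout. There were 16 control- and 15 SER-generated embryos, each sequenced as its own Smart-seq3 library, and the counts on genes ran from 532945 to 2085222 in the control group and from 642321 to 3088396 in the SER group. The study sequenced 3 batches of control- and SER-generated embryos. In its sperm protocol, a cauda epididymis went to control medium and the other to SER medium, so a male could serve both treatments. The labels do not tie embryos to batches or males. Batch effects could therefore not be removed, and the main comparison was not paired by male or batch. The p-values measure the spread between embryos that may share a father, a mother and a day.

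Proteins begin with a methionine, and on most of them the first residues are acetylated while the chain is still on the ribosome. NatA, made of the catalytic Naa10 and the ribosome-anchoring Naa15, acts after the methionine has been removed, Hypk binds and regulates this complex, and Naa50 sits on it and acetylates chains that keep the methionine. NatB (Naa20 and Naa25) and NatC (Naa30 as catalytic subunit) take other N-termini, Nmt1 adds myristate to an N-terminal glycine, and the nascent polypeptide-associated complex of Naca and Btf3 shields the chain where it leaves the ribosome. The 2-cell embryo is the stage at which maternal transcripts are cleared and the mouse embryo's own genome is switched on.

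Two-cell and oocyte transcripts were present as the labels require. The summed level of 15 two-cell genes, Zscan4 and Usp17l family members among them, ran from 49.8 to 2477 CPM (counts scaled to the same total in every library) in the control group and from 154 to 2074 CPM in the SER group. Of 14 oocyte genes in the table, Oog1 was at 0, and their sum was at least 4137 CPM in every embryo. Cumulus cell genes summed to medians of 369 CPM (control) and 396 CPM (SER), most of it from Nr5a2 and Amhr2, and Has2 had a count in 3 embryos. The steroidogenic Cyp11a1 was higher in the control group, with a mean of 106 CPM against 2.45 CPM and medians of 11.8 and 1.23 CPM. Inhba had means of 9.62 and 0.547 CPM, with a median of 0 in each group and a count in 10 embryos. Cyp11a1 and Inhba were highest in control replicate 5, at 1423 and 120 CPM against 71.8 and 22.2 CPM in the next control embryo. The whole cumulus list reached 1813 CPM in control replicate 5, against a highest SER sum of 762 CPM. The part of these genes in the results was not tested beyond leaving this embryo out. For 12 sperm genes the medians were 188 and 186 CPM, nearly all from Odf2. Control replicate 4 and SER replicate 15 stood apart from the rest: on the first principal component they lay at 159 and 185, against -68.0 to 61.1 for the other 29 embryos, and each had the lowest two-cell sum of its group. The treatment differences of the members, the order of their levels, their spread and their relations are given with and without these 2.

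For 4 genes whose start site lies clear of any annotated transcript of its own strand, the 60 bases before the RefSeq start (GRCm38.p6) are shown, to set subunits of NatA beside both subunits of the nascent polypeptide-associated complex. The windows are Naa10 at chrX:73921945-73922004 on the minus strand, Naa50 (first of 2 start sites) at chr16:44139731-44139790 on the plus strand, Naca at chr10:128035286-128035345 on the plus strand and Btf3 (first of 2 start sites) at chr13:98317007-98317066 on the minus strand. Capitals mark CCAAT and GGGCGG or their reverse complements ATTGG and CCGCCC.
Naa10: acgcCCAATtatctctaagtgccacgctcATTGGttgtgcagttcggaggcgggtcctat
Naa50: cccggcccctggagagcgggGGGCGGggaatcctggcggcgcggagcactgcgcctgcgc
Naca: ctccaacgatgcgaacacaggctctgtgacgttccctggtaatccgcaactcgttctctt
Btf3: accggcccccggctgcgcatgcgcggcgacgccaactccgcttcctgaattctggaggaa
The Naa10 window holds CCAAT once on each strand, and the Naa50 window holds GGGCGG once. Neither motif occurs in the windows of Naca and Btf3. RefSeq listed a start site for 9 of the 10 members, all except Naa25. Over the 250 bases before the start, CCAAT or its reverse complement occurred in 4 of these 9 (Hypk, Naa10, Naa15 and Nmt1) and in 33.8% of 32851 mouse promoters, and GGGCGG in 5 of 9 against 32.7%. CCGGAA or TTCCGG, a sequence chosen after these promoters had been read, occurred in 5 of 9 (Hypk, Naa20, Naa30, Btf3 and Nmt1) against 12.0%, and TATAAA or TTTATA in none against 12.4%. A gene with 2 start sites had more than 1 window in which to match, and these are matches of letters only.

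Hypk was the most abundant member. Its mean of 1382 CPM over the 31 embryos placed it 26th of 8571 tested genes. In the control group Hypk ran from 805 CPM through a median of 1499.9 CPM to 5483 CPM, and in the SER group from 381 CPM through 906 CPM to 1566 CPM. The lowest, median and highest embryo are given in this order for each gene. The groups overlapped, but 14 of 15 SER-generated embryos lay below the control median, 6 lay below every control embryo, and 7 control embryos lay above every SER embryo. The mean was 1812 ± 1069 CPM (SD, n = 16) in the control and 924 ± 309.9 CPM (SD, n = 15) in the SER group. On the log2 scale the fitted difference was -1.07 (SE 0.24, 95% interval -1.55 to -0.59), which is 47.7% of the control level and is the value for which the gene was chosen. The interval does not allow for that choice and is not a test. Control replicate 3 held the highest value, 5483 CPM against 2526 CPM in the next control embryo, and without it the difference was -0.80. Excluding the 2 embryos that stand apart it was -1.02, and without control replicate 5 it was -1.10.

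**Figure D1:**
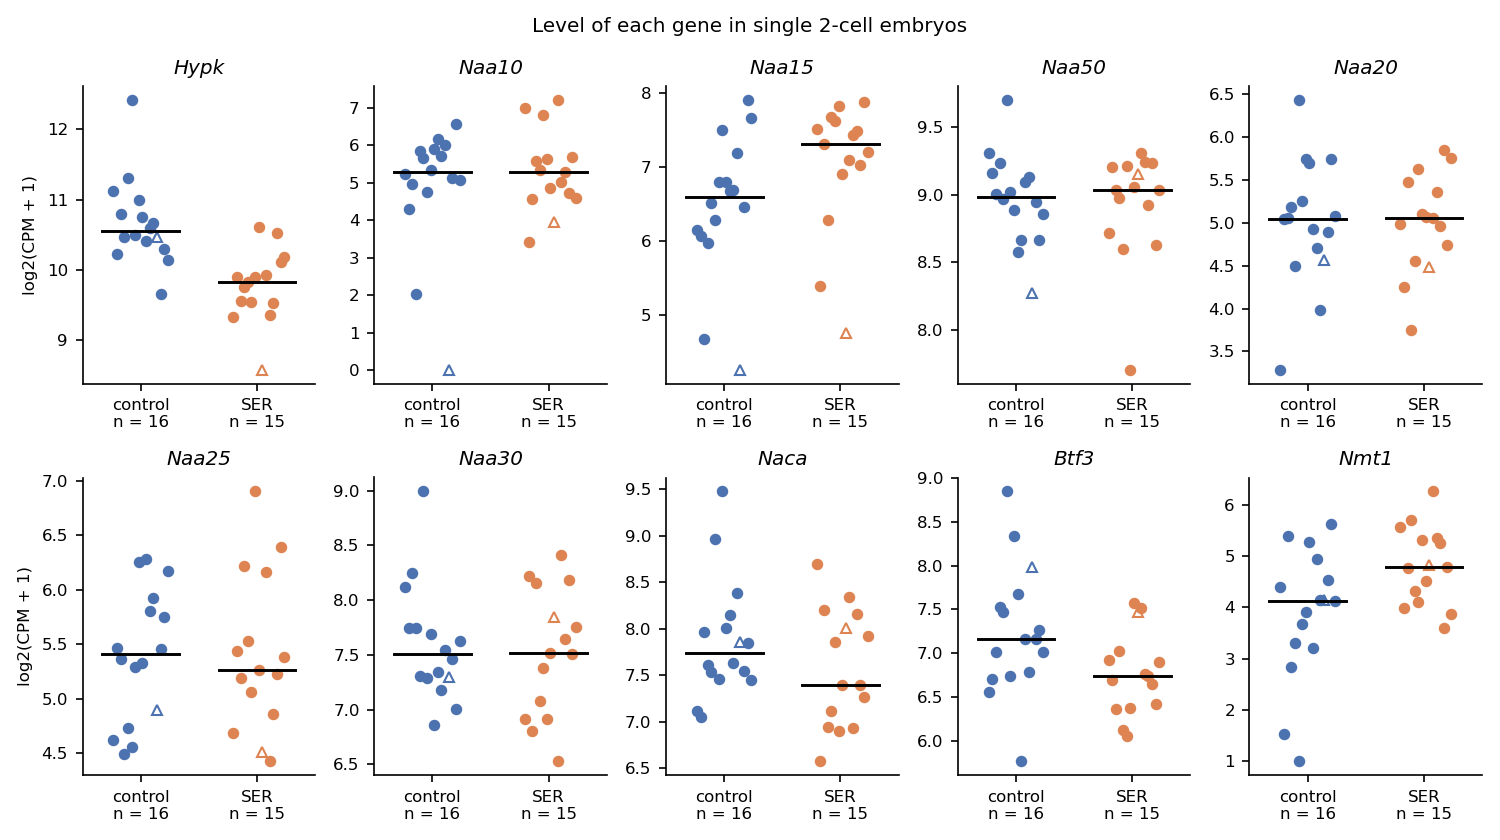
Level of each of the 10 genes as log2(CPM + 1) on the y axis, for 16 control- and 15 SER-generated embryos side by side. Each point is 1 embryo, bars are medians, and open triangles are the 2 embryos that stand apart; Hypk has 14 of 15 SER points below the control bar, while the 2 groups of the other genes overlap over most of their range.

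Reads from the Hypk locus cannot all be told from those of its neighbours. Hypk lies at chr2:121453290-121458672 on the plus strand (GENCODE vM21, GRCm38, as for all positions that follow). Of its 5278 annotated exon bases, 1893 (35.9%) are also exon of Serf2 on the same strand, and 1576 (29.9%) are exon of Serinc4 on the opposite strand. A Serf2 transcript subject to nonsense-mediated decay matches a Hypk transcript over 675 bases, and the strand setting of the counting is not given in the sources used here. Serf2, which encodes a small protein that promotes amyloid formation, ran from 257 through 721 to 2435 CPM in control- and from 199.6 through 524 to 1213 CPM in SER-generated embryos. Its log2 difference was -0.80 (SE 0.29, edgeR adjusted p = 0.640), and 9 of 15 SER embryos were below its control median. By replicate number, Serf2 ran from 257 to 916 CPM in control replicates 1 to 11. In control replicates 12 to 16 it ran from 1453 to 2435 CPM. SER replicates 12 to 14 had 896 to 1213 CPM, more than any other SER embryo, and SER replicate 15 had 413 CPM. Whether this order follows the batches was not tested. Serinc4, a serine incorporator family member, was close to nothing, with a highest value of 8.09 CPM and no count in 17 of the 31 embryos. When the counts of the 3 genes were summed, the log2 difference was -0.97, against -1.07 for Hypk alone. After group means were removed, the Spearman rho of Hypk with Serf2 was 0.37 over 31 embryos, the 235th highest of 8570 genes.

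**Figure D2:**
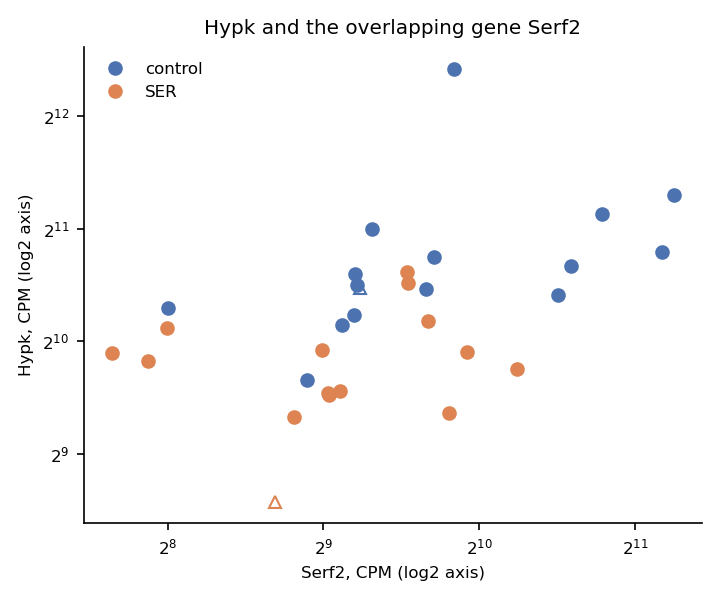
Hypk against Serf2 in CPM on log2 axes, 1 point per embryo, with open triangles for the 2 embryos that stand apart. Control replicate 3 has the highest Hypk value, 5483 CPM, at a Serf2 value of 916 CPM, and the control embryos with the most Serf2, up to 2435 CPM, lie below it in Hypk.

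None of the other 9 members passed an edgeR adjusted p of 0.1, and neither did any other tested gene (0 of 8571, 0.00%). At an unadjusted p under 0.05 there were 491 genes (5.73%), and 1 of the 9, Btf3, was among them. DESeq2 called 45 of 7436 genes (0.605%) and none of the 9, whereas limma voom with sample quality weights called 848 genes (9.89%) and 1 of the 9, Naa15. By edgeR, 4 of the 9 had higher and 5 had lower fitted levels after SER, and their median log2 difference was -0.06, beside 0.02 for all tested genes.

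Both core subunits of NatA had fitted differences above 0, with intervals that reached across 0. Naa10, the catalytic subunit (chrX:73916873-73921944, minus strand), ran from 0 through 38.0 to 94.95 CPM in control- and from 9.73 through 38.1 to 149 CPM in SER-generated embryos. The medians almost coincided, and the group extremes were a control embryo without a count, replicate 4 of the pair that stand apart, and 3 SER embryos above every control. The log2 difference of Naa10 was 0.26 (95% interval -0.57 to 1.10, edgeR adjusted p = 0.973). Its exons share 480 bases with Arhgap4 on the same strand, a gene with a log2 difference of -0.35 (SE 0.56).

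Naa15, the auxiliary subunit that holds NatA to the ribosome (chr3:51415148-51476507, plus strand), was the NatA subunit with the larger displacement. It ran from 18.1 through 95.5 to 239 CPM in control- and from 26.1 through 157 to 233 CPM in SER-generated embryos. Of the SER embryos 12 of 15 lay above the control median, yet none exceeded the highest control embryo, and 2 control embryos fell below all SER embryos. The log2 difference was 0.45 (95% interval -0.15 to 1.05, edgeR adjusted p = 0.928). In limma voom with sample quality weights it was 0.68 (limma adjusted p = 0.0687), the single setting in which Naa15 passed the threshold.

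Naa50, the acetyltransferase that rides on NatA (chr16:44139830-44163366, plus strand), varied least of the 10. Its range was 308 through 506 to 833 CPM in control- and 207 through 525 to 634 CPM in SER-generated embryos, so that the groups covered nearly the same values. The log2 difference was -0.06 (95% interval -0.40 to 0.28, edgeR adjusted p = 0.982), which bounds a change of this gene more tightly than of any other member. The coefficient of variation between embryos beyond counting error that edgeR estimated was 0.348 for Naa50, smaller than for all but 0.793% of tested genes, against a median of 0.679.

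The proportion of Hypk to the NatA subunits within an embryo is given as a description. To each value per kilobase of exon, 1 CPM was added. The median ratio of Hypk to Naa15 was then 39.6 in control- and 13.1 in SER-generated embryos, and that of Hypk to Naa10 was 34.5 and 15.9. Hypk exceeded both subunits in all 31 embryos on this scale. These ratios contain the Hypk values for which the gene was chosen and were not tested. Their size also depends on the length used. Per kilobase of exon the medians over 31 embryos were 228 CPM for Hypk, 9.21 for Naa10 and 7.67 for Naa15. Per kilobase of median coding transcript they were 468, 41.1 and 17.4. The log2 ratio of Naa15 to Naa10 was taken per kilobase of exon with the same 1 CPM added. It was -0.36 ± 0.90 (SD, n = 16) in the control and -0.15 ± 0.83 (SD, n = 15) in the SER group, a difference well inside the spread.

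NatB and NatC showed no displacement larger than the spread between embryos. Naa20, the NatB catalytic subunit (chr2:145902099-145916425, plus strand), ran from 8.74 through 32.2 to 85.8 CPM in the control and from 12.5 through 32.4 to 56.7 CPM in the SER group, with a log2 difference of -0.16 (95% interval -0.74 to 0.42, edgeR adjusted p = 0.977). Naa25, which anchors NatB (chr5:121397936-121444378, plus strand), ran from 21.5 through 41.6 to 76.7 CPM in the control and from 20.4 through 37.4 to 119 CPM in the SER group. Both NatB genes had medians within a few CPM of each other in the 2 groups, and the SER embryos of Naa25 reached further up, with 2 above every control embryo. The log2 difference of Naa25 was 0.04 (95% interval -0.50 to 0.59, edgeR adjusted p = 0.992). Of the 8298 exon bases of Naa25, 2210 are also exon of Erp29 on the opposite strand, a gene of an endoplasmic reticulum protein with a mean of 255 ± 182 CPM (SD, n = 16) in the control group.

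Naa30, the catalytic subunit of NatC (chr14:49172226-49191031, plus strand), ran from 115 through 181 to 510.1 CPM in control- and from 91.2 through 182 to 339 CPM in SER-generated embryos. The groups overlapped apart from 1 control embryo above all SER embryos and 2 SER embryos below all control embryos. Its log2 difference was -0.14 (95% interval -0.60 to 0.32, edgeR adjusted p = 0.974).

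The nascent polypeptide-associated complex had lower fitted levels in SER-generated embryos for both subunits, and neither passed the threshold. Btf3, the beta subunit (chr13:98309896-98317006, minus strand), ran from 53.4 through 142 to 460.3 CPM in control- and from 65.4 through 106 to 189.9 CPM in SER-generated embryos. Here 12 of 15 SER embryos were below the control median and 4 control embryos were above all SER embryos, while the lowest embryo was a control. The log2 difference of Btf3 was -0.68 (95% interval -1.23 to -0.14, edgeR p = 0.0146, adjusted p = 0.731), and -0.47 without control replicate 3, the embryo with the most Btf3. Naca, the alpha subunit (chr10:128035575-128048637, plus strand), ran from 131 through 213 to 713 CPM in the control and from 94.0 through 167 to 412 CPM in the SER group. Of the SER embryos 8 were below and 7 above the control median of Naca, 2 control embryos lay above all SER embryos and 4 SER embryos lay below all control embryos. The log2 difference was -0.40 (95% interval -0.94 to 0.14, edgeR adjusted p = 0.935), and -0.20 without control replicate 1, the embryo with the most Naca. In limma voom with sample quality weights Naca had the opposite sign, 0.11.

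Nmt1, the N-myristoyltransferase (chr11:103028190-103068912, plus strand), was the least abundant member. It ran from 0.98 CPM, a single count, through 16.5 to 48.4 CPM in control- and from 11.1 through 26.9 to 76.8 CPM in SER-generated embryos. The SER embryos were above the control median in 11 of 15 cases and 5 control embryos were below all of them. The log2 difference was 0.72 (95% interval -0.06 to 1.497, edgeR adjusted p = 0.869). Its exons share 144 bases with Dcakd on the opposite strand.

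**Figure D3:**
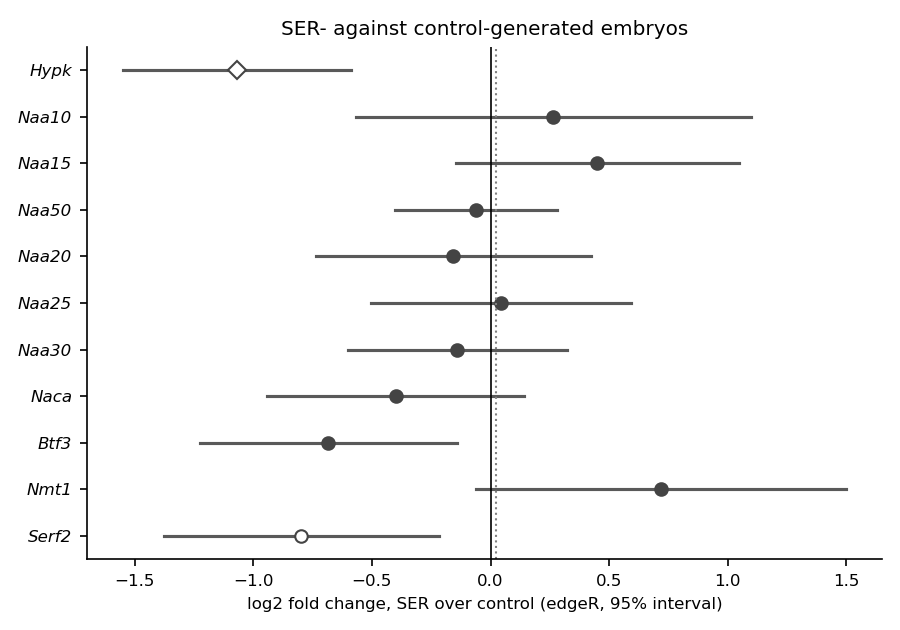
Log2 fold change of SER over control on the x axis with its 95% interval from edgeR, for the 10 genes and for Serf2, which shares exon with Hypk. The interval of Hypk does not allow for the choice of the gene on this contrast. The open diamond is Hypk, whose value of -1.07 chose it, the open circle is Serf2 and the dotted line is the median of all tested genes, 0.02; among the 9 other members the interval of Btf3 alone, -1.23 to -0.14, does not reach 0, before any adjustment.

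Excluding the 2 embryos that stand apart, the 9 log2 differences kept their signs, from -0.70 for Btf3 (edgeR adjusted p = 0.440) to 0.72 for Nmt1 (adjusted p = 0.678), and no gene of the table passed the threshold. Control replicate 3 held the highest value of 5 of the 10 genes, namely Hypk, Naa50, Naa20, Naa30 and Btf3, and the lowest value of Nmt1. Without this embryo the differences of Naa50, Naa20 and Naa30 became 0.02, 0.03 and 0.06.

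Close relatives of the members gave no edgeR call, as was so for all tested genes (0 of 8571, 0.00%). Naa11, a paralog of Naa10, had a mean of 39.2 ± 25.5 CPM (SD, n = 16) in control- and 42.7 ± 49.0 CPM (SD, n = 15) in SER-generated embryos. Naa16, the paralog of Naa15, had a log2 difference of -0.13 (SE 0.27), Nmt2, the paralog of Nmt1, one of -0.29 (SE 0.27) and Btf3l4, the paralog of Btf3, one of -0.60 (SE 0.38), with an edgeR adjusted p of 0.918 for Btf3l4. Nacad, related to Naca, had too few counts to be tested. At 95% identity over at least 100 bases, transcripts of Btf3, Naca, Naa10 and Naa20 matched processed pseudogenes, none of which is in the count table, and a Hypk transcript matched 114 bases of Colec12, which is.

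No gene of the 4 lists of neighbouring functions passed the edgeR threshold, which none of the 8571 tested genes passed. Among 11 tested genes of N-terminal modification outside the members, 6 had a higher and 5 a lower fitted level after SER, against 4515 and 4056 of the 8571 tested genes, their median log2 difference was 0.06. The extremes were Natd1, an acetyltransferase-domain gene, at 0.31 (SE 0.36), and Naa38, a NatC auxiliary subunit, at -0.43 (SE 0.56). For 13 genes that meet the nascent chain, 6 were higher and 7 lower (median -0.04). Ltn1, the E3 ligase that marks chains on stalled ribosomes, had a mean of 16.7 ± 13.2 CPM (SD, n = 16) in the control and of 35.1 ± 9.54 CPM (SD, n = 15) in the SER group, a log2 difference of 1.02 (SE 0.36, edgeR adjusted p = 0.607). Srp14, a signal recognition particle subunit, was at the other end at -0.82 (SE 0.31, edgeR adjusted p = 0.730). The 16 genes of cotranslational folding were split 8 to 8 (median 0.01), from prefoldin subunit Pfdn4 at -0.51 (SE 0.47) to Pfdn6 at 0.51 (SE 0.44). Of 13 genes that read N-terminal degrons, 5 were higher and 8 lower (median -0.05), with Ntan1, an N-terminal asparagine amidase, lowest at -0.71 (SE 0.39).

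Because long transcripts collect more reads, levels of different genes were compared per kilobase of annotated exon. The median over 31 embryos was 228 CPM per kilobase for Hypk, 111 for Naa50, 69.3 for Btf3, 29.0 for Naca, 26.1 for Naa30, 9.21 for Naa10, 8.75 for Naa20, 7.67 for Naa15, 4.85 for Naa25 and 4.01 for Nmt1. Hypk, Naa50 and Btf3 thus led, and by exon length both core NatA subunits were in the lower part of the order. By the median length of coding transcripts Naa10 ranked 5 and Naa15 ranked 8. Within an embryo, Hypk exceeded Naa50 by 1.10 ± 0.73 (SD, n = 31) on the log2(CPM per kilobase + 1) scale and in 29 of 31 embryos, and Naa50 exceeded Btf3 in 25 embryos. Of the 9 pairs of neighbours in this order, 5 differed beyond the spread over embryos in 2-sided permutation tests by sign flips, the other 3 being Btf3 over Naca, Naa30 over Naa10 and Naa15 over Naa25. Adjusted p-values were 4.5e-05 for Hypk over Naa50 and for Btf3 over Naca, where the permutations gave the smallest p they can give, 1e-05, 0.000585 for Naa50 over Btf3, 6e-05 for Naa30 over Naa10 and 0.0111 for Naa15 over Naa25. The pairs Naca and Naa30 (adjusted p = 0.231), Naa10 and Naa20 (0.894), Naa20 and Naa15 (0.165), and Naa25 and Nmt1 (0.165) did not pass. Excluding the 2 embryos that stand apart, the same 5 pairs passed, with adjusted p from 4.5e-05 to 0.00274. Hypk, Naa50, Btf3 and Naca also led when the median length of coding transcripts took the place of all exons, with 468, 142, 136 and 51.7 CPM per kilobase. On that scale Naa10, at 41.1, lay just above Naa30, at 40.9, and Naa50 and Btf3 lay close together. The pairs were not tested on that scale. The results for Naa30 over Naa10, Naa50 over Btf3 and Btf3 over Naca are therefore stated for exon length only. In CPM without division by length, Naca ranked 3 and Btf3 ranked 5, so the order of these 2 genes rests on the lengths used.

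**Figure D4:**
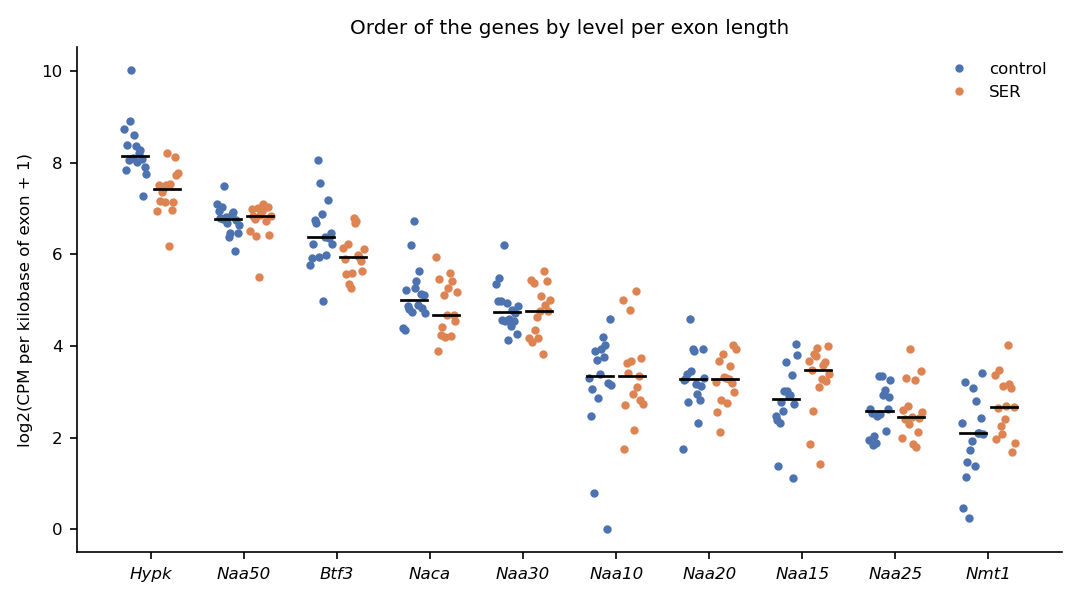
Level per length, log2(CPM per kilobase of exon + 1), of the 10 genes in the order of their median over all embryos, with control and SER embryos drawn apart and bars at the group medians. Hypk stands at the left with a median of 228 CPM per kilobase over all embryos and Nmt1 at the right with 4.01.

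The 2 groups did not differ detectably in how far embryos strayed from their group median. On the log2(CPM + 1) scale the mean absolute deviation of Nmt1 was 0.932 in control- and 0.614 in SER-generated embryos (2-sided permutation test, p = 0.235, adjusted over 9 members 0.847). For Btf3 it was 0.534 and 0.366 (p = 0.270), and the adjusted p of the 9 members ran from 0.847 to 0.883. Hypk, given without a test, had 0.405 and 0.367. Excluding the 2 embryos that stand apart, the adjusted p was 0.808 for each of the 9, and Hypk had 0.424 and 0.304.

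Whether embryos rich in Hypk were rich in the other members was asked with group means removed, in 19 relations adjusted together. With no other term, none of the 9 relations with Hypk passed over 31 embryos. The highest was with Btf3, at a Pearson r of 0.46 (permutation p = 0.0106, adjusted p = 0.0674) and a Spearman rho of 0.24 (adjusted p = 0.642). Without the 2 embryos farthest from the median of Hypk, r was 0.21. It was 0.65 within the control group and -0.05 within the SER group. Excluding the 2 embryos that stand apart, r was 0.61 (permutation adjusted p = 0.0239) with a rho of 0.33 (adjusted p = 0.388), and control replicate 3 is still among the embryos that remain. With the means of 3 embryo clusters, estimated by k-means on the 1000 most variable genes, removed as well, r over the 31 embryos was 0.60 (permutation adjusted p = 0.0192) and rho 0.32. Naa10 and Naa15 gave an r with Hypk of 0.11 and 0.08, and a rho of 0.03 and -0.08.

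The other 10 relations set each gene against a two-cell minus oocyte score, the mean log2 CPM of 13 two-cell genes less that of 13 oocyte genes. Its range was -6.95 to -1.27 in control- and -6.30 to -0.72 in SER-generated embryos, and the 2 embryos that stand apart held the 2 lowest scores. Excluding them, the highest was Naa15 at an r of 0.44 (permutation adjusted p = 0.107) and a rho of 0.63 (adjusted p = 0.00722), so that the rank relation passed and Pearson's r did not, and neither measure passed for the other 9 genes. With them, r was 0.70 for Naa15 (rho 0.69, permutation adjusted p = 0.00095 for r and 0.00114 for rho) and 0.64 for Naa10 (rho 0.45, adjusted p = 0.0134 for r and 0.119 for rho), values of r that rest in part on 2 embryos. With the means of the estimated clusters removed, r was 0.14 for Naa15 and 0.13 for Naa10 (permutation adjusted p = 0.741 for both), and rho was 0.07 and 0.14. Genes of the score were not kept out of the clustering, and a cluster held only the 2 embryos with the lowest scores. Removing the cluster means thus also removes part of the score, so this fall in r cannot show what the relation rests on. Hypk had an r of 0.17 and a rho of -0.09 with this score, and an r of -0.08 excluding the 2 embryos.

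**Figure D5:**
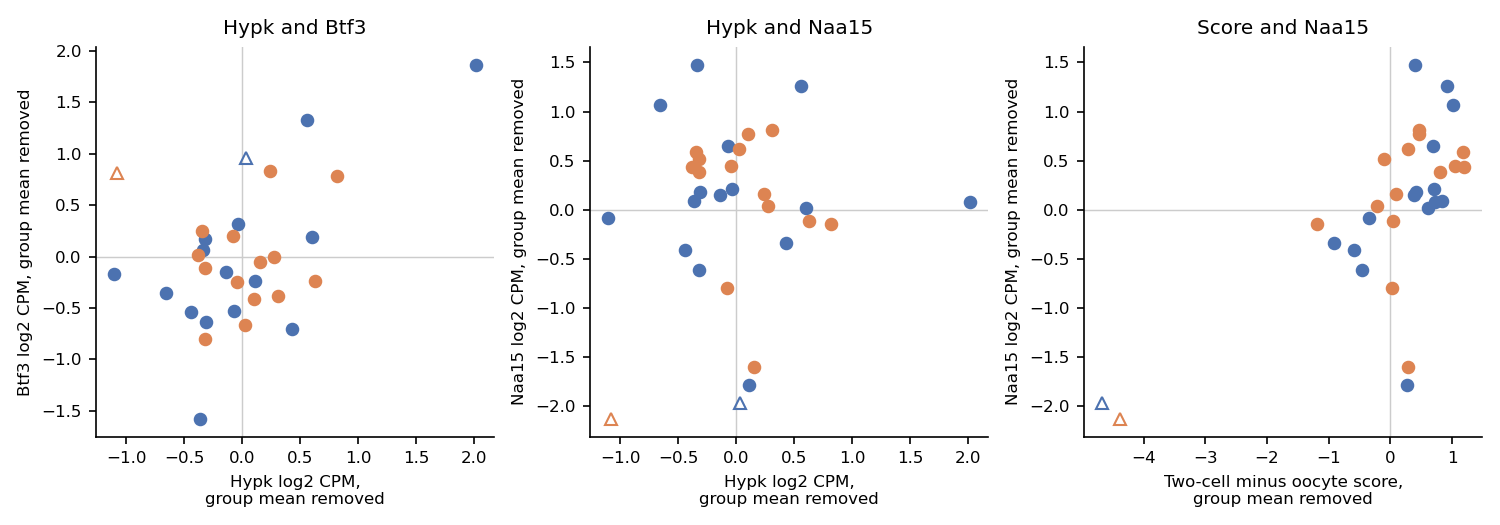
Log2 CPM with group means removed, 1 point per embryo, for Hypk and Btf3, for Hypk and Naa15, and for the two-cell minus oocyte score and Naa15. Open triangles are the 2 embryos that stand apart; in the right panel they lie far to the left at low Naa15, and the rest show an r of 0.44, while in the left panel control replicate 3 lies alone at the upper right.

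The genes whose pattern over the 31 embryos was most like that of Hypk came from outside this group of functions. By Spearman rho, with group means removed and over 8570 genes, they were Cox8a, a cytochrome c oxidase subunit (0.70), Tmem107, a protein of the ciliary transition zone (0.67), Romo1, a protein of the mitochondrial inner membrane (0.65), Btbd7, a BTB-domain protein (0.62), and Timm8b, a chaperone of mitochondrial protein import (0.62). They share libraries and depth with Hypk, so the values are given without a p. None of the 5 passed the edgeR test between the treatments, which no tested gene passed. Timm8b had a log2 difference of -1.32 (SE 0.32, edgeR adjusted p = 0.242), Romo1 of -1.03 (SE 0.31, adjusted p = 0.403) and Btbd7 of -0.10 (SE 0.29, adjusted p = 0.983). Among the members, Btf3 came closest to the pattern of Hypk at a rho of 0.24, the 941st highest, and Naa10 and Naa15 were 3683rd and 5458th.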

How the data were processed

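RNA was measured in 31 single 2-cell embryos, and every embryo was kept. The authors separated the 5′ reads that carry a molecular identifier from internal reads, ran STAR, UMI-tools, Picard and featureCounts to align, deduplicate and count the reads per gene, and they deposited these whole-number counts without normalization. The submitters' processing notes name the mm10 build. Tool versions, the annotation and the strand setting are not given in the sources used here. The authors' ComBat-seq step could not be repeated, since no source ties an embryo to a batch. Precision is limited by depths of 532945 to 3088396 counts, and internal reads have no molecular identifier, so read counts may exceed molecules.

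From these, the 2 sperm treatments were compared with edgeR 4.0.16 (R 4.3.3; TMM, quasi-likelihood test, Benjamini-Hochberg over 8571 genes kept by filterByExpr at a minimum count of 10 and total of 15), at an adjusted p of 0.1 and without covariates. Permutation tests used 100000 resamples, 2-sided, with a pseudocount of 1 and a threshold of 0.05. Log2 CPM for relations used TMM and a prior count of 2. Alternatives were DESeq2 1.42.0, limma 3.58.1 (voom with sample quality weights), other scalings, filters and terms, and leaving out each embryo.

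The members and lists were chosen with earlier results of these data known. Named besides the 10 members were genes past the threshold and the extremes of 4 pathway lists, the 5 genes most like Hypk, paralogs, and genes sharing exon with a member. The gene at 1 extreme of a list is not reported here. Exons came from GENCODE vM21, in which 20020 of 20544 symbols were found directly and 347 by another symbol. A grouping of genes by the first residues of their proteins was planned and not run, since no protein table was used here.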

Additional observations from a re-analysis of the deposited data

How the results depend on the processing

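The number of genes called between SER- and control-generated embryos was 0 with edgeR under TMM, with DESeq2's size factors, a stricter filter, thinned counts, the length trend removed and every embryo left out in turn (range 0 to 0), and also, in an alternative chosen after seeing the data, excluding the 2 embryos that stand apart. It was 504 of 17803 without the filter, 45 with DESeq2 (8 higher, 37 lower), 848 with limma voom (391 higher, 457 lower) and 41 with 3 estimated embryo clusters as a term (12 higher, 29 lower); the cause was not tested. Same-numbered embryos of the 2 groups correlated at -0.37 to 0.49 (8 of 15 pairs over 0.1), and 2 SER embryos correlated best with their own number. These values show no clear pairing by number, and they cannot show whether batches run along the numbers, which was not tested. Levels of Serf2 did differ along the replicate numbers, as given above. With the replicate block the count was 0 of 8361, with 309 at an unadjusted p under 0.05, against 491 without it. The log2 difference of Hypk kept its sign throughout, from -1.14 to -0.80 with 1 embryo left out and from -1.26 (length trend removed) to -0.54 (limma voom), with -0.90 under the replicate block. Leaving out single embryos, Naa25 ran from -0.12 to 0.14, Naa20 from -0.23 to 0.026, Naa30 from -0.22 to 0.059 and Naa50 from -0.10 to 0.018. Naa20, Naa30 and Naa50 turned without control replicate 3, and Naa25 without control replicates 5 and 16 and SER replicates 1, 2, 6 and 12. Naa25 was -0.090 with the length trend removed, -0.068 under the replicate block and -0.17 under both. In limma voom Naa20 was 0.15 and Naca 0.11. Without division by length, 3 of the 10 genes kept their rank in the order of levels. Of 19 relations, 2 passed by Pearson's r in the main setting (the score with Naa15 and with Naa10), 3 with thinned counts, 1 with the estimated clusters removed and 1 excluding the 2 embryos that stand apart. In both of the last 2 settings the main calls were lost and Hypk with Btf3 passed instead. Depth limits the low members most: Nmt1 rested on 1 count in 2 control embryos and Naa10 on 0 in 1.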
